A study of Homo sapiens with 17 samples.

Results

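Interferon response genes are the genes that cells switch on when an interferon binds its receptor. The 45 genes described here were taken from a list of symbols covering the receptor, its transcription factors and the antiviral genes downstream. All 45 had an Ensembl identifier in the 13 libraries of read counts, whose tables hold 58302 identifiers, and in the 4 libraries of sorted cells, whose tables hold 28285. A type I interferon joins the receptor chains IFNAR1 and IFNAR2, and their kinases phosphorylate STAT2, which joins IRF9 in the complex ISGF3 and moves to the nucleus. ISGF3 binds the interferon-stimulated response element in the promoters of its targets, whose products sense viral RNA, block translation, tag proteins with ISG15 or stop virus entry at membranes. Interferon and inflammatory signals are known to act on the formation of blood stem cells from endothelium in zebrafish and mouse embryos.

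RNA was sequenced from H1 cells, a line of human embryonic stem cells in wide use, after differentiation to endothelial cells carrying a GATA2/eGFP reporter (GATA2 being a transcription factor of blood-forming endothelium). Per the labels all libraries used here are reporter-positive cells or their progeny, made either with vitamin C (Vc+) or without it (Vc-). Vitamin C is a cofactor of dioxygenases that demethylate histones and DNA. Sorted endothelial cells gave 2 Vc+ and 2 Vc- libraries, in TPM, transcript levels scaled by gene length and library. A course of re-plated cells gave 1 Vc+ and 1 Vc- library at each of 0, 24, 36, 48 and 60 h, the later ones from mixed endothelial and haematopoietic cells. Cultures made with vitamin C gave 3 more libraries, of cells suspended in the medium at 96 h and at 60 h, and adhered cells at 60 h, with the suspended ones labelled haematopoietic. Each condition and time of the course, and each of the suspended and adhered samples, is 1 library. Groups follow the sample titles, and for 2 of the 4 sorted libraries the descriptions give the other condition. Nothing in the labels says that replicates came from separate cultures, so p-values measure only the spread between these libraries. Vitamin C and time were tested over the 10 course libraries with edgeR's quasi-likelihood test. The times stand in for replicates there, so the spread behind the vitamin C test is that of the Vc+ and Vc- difference over the times. Vitamin C thus cannot be told apart from any other lasting difference between the Vc+ and Vc- cultures. "Called" below means an adjusted p under 0.05 over all genes tested.

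The 13 count libraries held 6214675 to 11058345 counts, and a count of 0 allows a level of up to 3 counts, or 0.271 to 0.483 CPM (the share of a library's counts, scaled). Summed over 12 endothelial markers, the course libraries held 8907 to 11072 CPM with vitamin C and 7872 to 9987 CPM without it, and 4 of the 12 were called higher with vitamin C (TIE1, EMCN, ENG and CLDN5). Summed over 12 blood markers, they held 171 to 542 CPM with vitamin C and 87.8 to 154 CPM without it. Of these blood markers 10 were called higher with vitamin C, 11 having been tested, while PTPRC was at 0 in all 5 Vc- libraries. Of 6 epithelial markers 4 were tested and 3 were called lower with vitamin C, with sums of 488 to 525 CPM with vitamin C against 1058 to 1173 CPM without it. Of 9 mesenchymal markers 8 were tested and 5 were called lower, with sums of 518 to 2236 CPM with vitamin C against 920 to 2067 CPM without it. The mesenchymal sum was lower with vitamin C at 24, 36, 48 and 60 h but not at 0 h (2236 CPM with vitamin C against 2067 CPM without it). The part of these cell markers in the results below was not tested, and in bulk RNA fewer cells of a type cannot be told apart from less RNA per cell.

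The 4 members with the smallest p among those called for vitamin C were IFIT1, ISG15, MX1 and IFITM1, and their promoters are printed to show where the letters of the response element stand. Sequences are from RefSeq (GRCh38.p14), from 250 bases before to 50 bases after the transcription start, on the gene's strand, at chr10:89392373-89392672 (IFIT1, plus strand), chr1:1013247-1013546 (ISG15, plus strand), chr21:41420308-41420607 (MX1, plus strand) and chr11:313790-314089 (IFITM1, plus strand). Capitals mark matches to the core of the response element, GAAANNGAAA, on either strand.
IFIT1: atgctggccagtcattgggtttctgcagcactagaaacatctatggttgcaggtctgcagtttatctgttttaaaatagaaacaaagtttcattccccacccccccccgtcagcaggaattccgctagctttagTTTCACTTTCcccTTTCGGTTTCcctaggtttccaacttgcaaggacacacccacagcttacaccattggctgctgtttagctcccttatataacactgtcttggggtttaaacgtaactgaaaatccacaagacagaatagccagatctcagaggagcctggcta
ISG15: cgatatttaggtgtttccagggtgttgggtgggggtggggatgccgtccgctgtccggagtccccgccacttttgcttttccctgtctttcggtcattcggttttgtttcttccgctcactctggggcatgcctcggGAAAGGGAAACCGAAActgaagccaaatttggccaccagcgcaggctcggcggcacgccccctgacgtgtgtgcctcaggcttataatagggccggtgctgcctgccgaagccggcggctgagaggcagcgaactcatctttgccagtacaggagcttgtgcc
MX1: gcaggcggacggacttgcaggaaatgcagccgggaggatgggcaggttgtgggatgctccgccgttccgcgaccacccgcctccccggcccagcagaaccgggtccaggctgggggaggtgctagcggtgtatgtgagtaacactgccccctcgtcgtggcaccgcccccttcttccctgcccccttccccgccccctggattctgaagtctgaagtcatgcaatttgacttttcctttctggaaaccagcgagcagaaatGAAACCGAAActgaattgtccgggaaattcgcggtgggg
IFITM1: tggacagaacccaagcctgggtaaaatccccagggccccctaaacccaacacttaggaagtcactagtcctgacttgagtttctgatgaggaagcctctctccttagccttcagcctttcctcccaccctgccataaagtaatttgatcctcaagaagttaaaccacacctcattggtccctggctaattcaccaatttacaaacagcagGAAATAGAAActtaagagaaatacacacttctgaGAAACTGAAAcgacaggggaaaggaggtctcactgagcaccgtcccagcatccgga
IFIT1 held 2 matches, both on the opposite strand, beginning 116 and 103 bases before the start. ISG15 held 2 overlapping matches, beginning 113 and 107 bases before the start. The match in MX1 began 11 bases after the start, and the 2 in IFITM1 began 40 and 6 bases before it. Promoters were found for 36 of the 45 members, and 23 of them (63.9%) held a match, against 996 of 27305 promoters in all (3.65%). Among the members called for vitamin C the share was 6 of 7, and among those tested and not called 11 of 18. These matches describe letters in this window and are not evidence of binding.

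Over the course, cells made with vitamin C held more of 7 interferon response genes and less of 1. The 7 were the IFIT proteins IFIT1 and IFIT2, which bind viral RNA and block its translation, the RNA sensor IFIH1 (MDA5), OAS3, an enzyme that makes a messenger of oligoadenylates when it binds viral RNA, the GTPase MX1, the ubiquitin-like protein ISG15, and HERC6, an E3 ligase family member. The gene that was lower was IFITM1, whose membrane protein restricts virus entry. Of the 45 members 29 passed the filter on low counts and were tested; 7 of them (24.1%) were called higher with vitamin C, where the share over all 14773 genes tested was 2.52%, and 1 (3.45%) was called lower, where it was 3.73% over all genes. The median log2 difference of the 29 members was 0.18, against -0.00021 over all genes, and 16 of the 29 were above 0. At all 5 times 10 of the 29 (34.5%) were higher with vitamin C, where 9.65% of all genes were, and 3 (10.3%) were lower, where 8.76% of all genes were, counting any difference, also of 1 or 2 counts.

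IFIT1 held 6.199, 33.95, 59.2, 39.4 and 39.2 CPM with vitamin C at 0, 24, 36, 48 and 60 h, against 2.71, 6.92, 11.3, 14.4 and 18.6 CPM without it. The Vc+ library was higher at every time, most at 24 and 36 h, and the log2 difference over the course was 1.71 ± 0.20 (SE; edgeR adjusted p = 4.24e-04). IFIT2 held 0.115, 8.05, 11.9, 7.03 and 8.49 CPM with vitamin C at the same times, against 0, 1.31, 0.9096, 4.17 and 3.62 CPM without it. It was near 0 in both libraries at 0 h and higher with vitamin C at each later time, with a log2 difference of 1.93 ± 0.41 (edgeR adjusted p = 0.0162). IFIT3, which binds IFIT1, held 29.4, 33.6, 49.2, 49.02 and 63.5 CPM with vitamin C, against 11.9, 24.3, 38.5, 43.7 and 61.3 CPM without it. Its Vc+ library was the higher at all 5 times, by least at 60 h, and its log2 difference of 0.41 ± 0.14 was not called (edgeR adjusted p = 0.125). IFIT5 had a log2 difference of 0.09 ± 0.21 and was not called either.

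ISG15 held 26.4, 39.7, 68.8, 71.9 and 44.3 CPM with vitamin C, against 20.6, 11.9, 23.7, 22.99 and 31.8 CPM without it. It was higher with vitamin C at every time, with a log2 difference of 1.13 ± 0.19 (edgeR adjusted p = 0.00457). HERC6 held 2.41, 3.06, 5.21, 3.67 and 3.81 CPM with vitamin C, against 0.905, 1.31, 1.36, 0.926 and 2.97 CPM without it. Every Vc+ library except the one at 0 h was above all 5 Vc- libraries, and the log2 difference was 1.31 ± 0.33 (edgeR adjusted p = 0.0355). HERC5, the main ligase that joins ISG15 to proteins in human cells, had a log2 difference of 0.18 ± 0.25 and was not called, and USP18, which removes ISG15, did not pass the filter.

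MX1 held 0.2296, 2.57, 3.63, 2.29 and 4.39 CPM with vitamin C, against 0, 0.261, 0.569, 0.463 and 1.42 CPM without it. The Vc+ library was the higher from 24 h on, 0 h having 2 counts with vitamin C and 0 without it, and the log2 difference was 2.32 ± 0.41 (edgeR adjusted p = 0.00548), on a total of 93 counts with vitamin C and 21 without it. OAS3 held 4.82, 6.44, 9.81, 7.94 and 12.4 CPM with vitamin C, against 3.75, 3.01, 2.73, 1.08 and 2.72 CPM without it. All 5 Vc+ libraries lay above all 5 Vc- libraries, and the log2 difference was 1.59 ± 0.32 (edgeR adjusted p = 0.0106). IFIH1 held 0.689, 3.38, 4.604, 1.99 and 5.85 CPM with vitamin C, against 0.259, 0.915, 0, 0.772 and 2.33 CPM without it. It was higher with vitamin C at all 5 times although the 2 groups overlapped, with a log2 difference of 2.05 ± 0.54 (edgeR adjusted p = 0.0428) on 118 counts with vitamin C and 32 without it. DDX60, a helicase that helps RNA sensors, was higher with vitamin C at all 5 times with a log2 difference of 0.80 ± 0.30 that was not called (edgeR adjusted p = 0.162).

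IFITM1 held 18.02, 3.38, 4.12, 5.65 and 14.9 CPM with vitamin C, against 33.9, 5.096, 5.46, 10.03 and 26.1 CPM without it. Both groups were highest at 0 h and lowest at 24 h, the Vc+ library was the lower at every time, and the log2 difference was -0.76 ± 0.15 (edgeR adjusted p = 0.0104). Its paralogs were not called, IFITM2 at -0.12 ± 0.07 and IFITM3 at -0.02 ± 0.08 on the log2 scale. The IFITM1 and IFITM2 gene models in GENCODE 29 (GRCh38) share 351 exonic bases, which is 32.5% of IFITM1, and all 3 are close paralogs, so their reads may be split between them. The last member of the membrane group, BST2 (tetherin), which holds budding viruses at the cell surface, had a log2 difference of 0.39 ± 0.20 and was not called (edgeR adjusted p = 0.33).

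**Figure D1:**
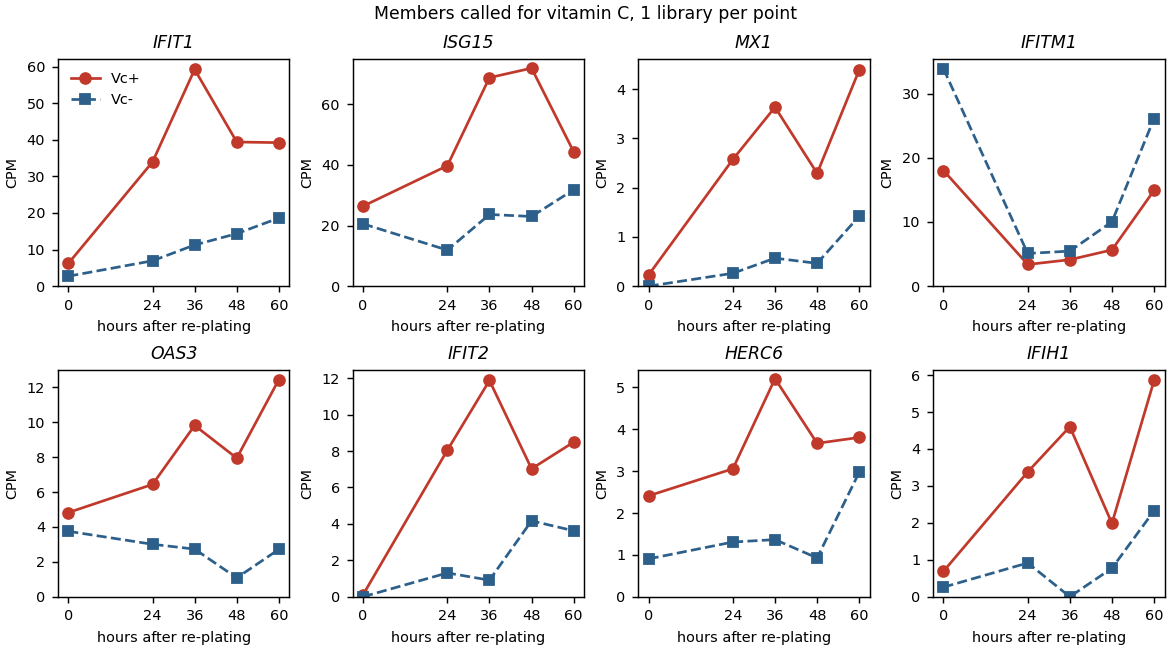
CPM (vertical axis) of the 8 members called for vitamin C against hours after re-plating (horizontal axis), with 1 library per point, Vc+ as red circles and Vc- as blue squares. IFIT1, ISG15, MX1, OAS3, IFIT2, HERC6 and IFIH1 lie higher with vitamin C from 24 h on, and IFITM1 lies lower.

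The 8 calls became 4 or 5 without a library of 24, 36 or 48 h, and 0 with no term for time in the fit. The calls of IFIT1, ISG15 and MX1 stood in all 10 fits that left out 1 library. With time as a factor, the library left alone at its time adds nothing on vitamin C. The fits without either library of a time thus nearly repeat each other and are not separate checks. DESeq2 gave MX1 no adjusted p, and MX1 did not pass the filter without the 60 h pair. IFIH1 was not called without either library of 24, 36, 48 or 60 h (log2 1.47 to 2.44, edgeR adjusted p = 0.0657 to 0.115), nor HERC6 without either library of 24, 36 or 48 h (1.14 to 1.34, edgeR adjusted p = 0.0892 to 0.176). IFIT2 was not called without either library of 24 or 36 h (1.45 to 1.76, edgeR adjusted p = 0.0730 to 0.0896), and OAS3 without either of 36 or 48 h (1.37 to 1.53, edgeR adjusted p = 0.0511 to 0.0616). IFITM1 was not called without the Vc- library of 60 h (log2 -0.73, edgeR adjusted p = 0.0516).

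Among the members, the genes that receive and relay the interferon signal were not called, and IRF7 was not tested. IFNAR1, a receptor chain, held 44.7, 65.7, 67.8, 74.7 and 83.4 CPM with vitamin C at 0, 24, 36, 48 and 60 h, against 56.6, 73.3, 69.5, 85.3 and 82.5 CPM without it, a log2 difference of -0.15 ± 0.08 (edgeR adjusted p = 0.311). IFNAR2, the other chain, held 34.2, 27.8, 38.5, 45.1 and 43.03 CPM with vitamin C, against 52.3, 23.9, 34.2, 43.5 and 49.01 CPM without it, a log2 difference of -0.10 ± 0.12 (edgeR adjusted p = 0.729). Both chains were present in every library, and the largest gap for IFNAR2 was at 0 h, where it was lower with vitamin C.

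STAT2, the ISGF3 subunit that activates transcription, held 57.2, 56.5, 59.0, 72.2 and 80.6 CPM with vitamin C, against 62.4, 59.4, 64.02, 77.9 and 83.4 CPM without it. It was slightly lower with vitamin C at all 5 times, with a log2 difference of -0.11 ± 0.07 (edgeR adjusted p = 0.442). IRF9, the DNA-binding subunit of ISGF3, held 3.33, 4.18, 3.03, 5.19 and 3.81 CPM with vitamin C, against 1.94, 3.14, 2.27, 2.47 and 4.27 CPM without it, with a log2 difference of 0.47 ± 0.27 (edgeR adjusted p = 0.386). In GENCODE 29 other gene models on the same strand cover 48.4% of the exonic bases of IRF9 and 44.2% of those of IFNAR2. Models on the other strand cover 39.1% of IFNAR2, 22.0% of IRF1 and 21.3% of IFITM3. The strand setting of the counting is not given, which makes all of these counts uncertain. IRF1, a transcription factor induced by several cytokines, held 3.44, 6.44, 6.18, 9.01 and 8.78 CPM with vitamin C, against 1.16, 9.54, 10.3, 9.72 and 10.5 CPM without it, with a log2 difference of -0.19 ± 0.26 (edgeR adjusted p = 0.767). The groups of both overlapped, and IRF1 was lowest at 0 h in each. IRF7, which drives interferon genes themselves, held 0.2296, 0.644, 0, 2.14 and 1.46 CPM with vitamin C, against 0.517, 0.523, 1.14, 0.463 and 0 CPM without it, and did not pass the filter.

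**Figure D2:**
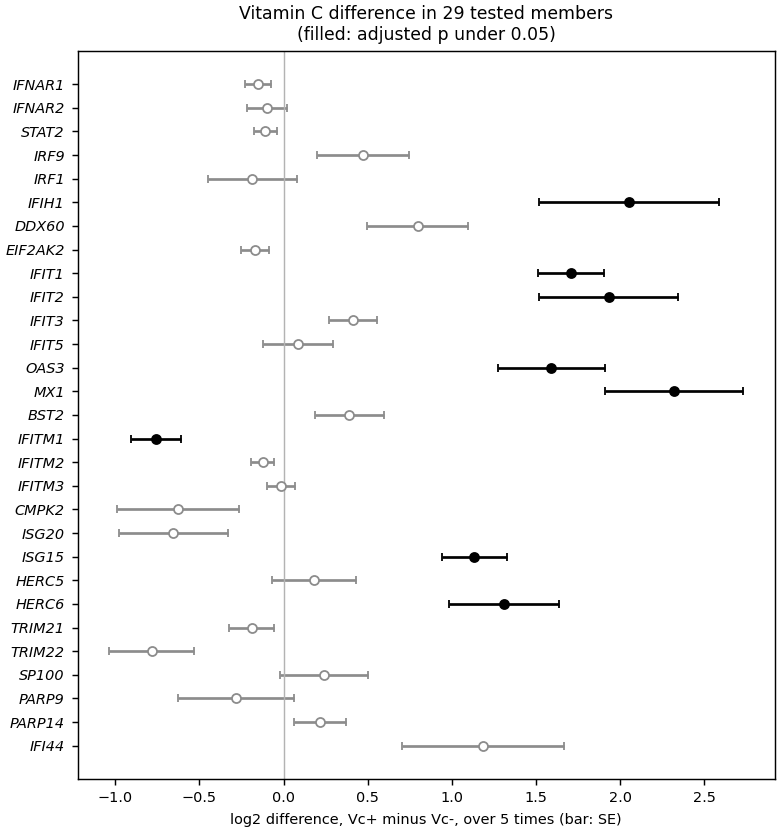
The log2 difference between Vc+ and Vc- libraries over the 5 times (horizontal axis; points with SE bars) of the 29 tested members, ordered by role from the receptors at the top. The 8 called members are filled, of which MX1 at 2.32 is the highest and IFITM1 at -0.76 the only one below 0.

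The other tested members were not called for vitamin C. Their log2 differences ran from -0.78 ± 0.25 for TRIM22, an antiviral ubiquitin ligase (edgeR adjusted p = 0.0936), to 1.19 ± 0.48 for IFI44 (edgeR adjusted p = 0.193). Between them lay the double-stranded RNA kinase EIF2AK2 (PKR) at -0.17, the nucleotide kinase CMPK2 at -0.63, the exonuclease ISG20 at -0.65, the antibody receptor TRIM21 at -0.19, the nuclear body protein SP100 at 0.24 and the ADP-ribosyltransferase family members PARP9 at -0.29 and PARP14 at 0.22. The 16 members that did not pass the filter were IRF7, OAS1, OAS2, OASL, MX2, RSAD2, USP18, SAMD9, SAMD9L, IFI6, IFI27, IFI35, IFI44L, XAF1, EPSTI1 and LGALS3BP. IFI6, a membrane protein of the endoplasmic reticulum and mitochondria, held 0.574, 1.93, 2.42, 4.12 and 5.85 CPM with vitamin C, against 0.905, 0.131, 0.227, 0.154 and 1.29 CPM without it. Vc+ was the higher at 24 to 60 h and the lower at 0 h, and IFI6 was called higher in the fit with no filter and in the fit without the 0 h pair.

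Genes for the interferons themselves were almost unread. The 10 interferon genes looked for (IFNA1, IFNA2, IFNB1, IFNE, IFNK, IFNW1, IFNG and IFNL1 to IFNL3) had 7 counts in all over the 13 libraries and never more than 1 in a library. Levels under 3 counts per library were not detectable at this depth. Among 14 kinase, STAT and regulator genes outside the 45, 1 was called higher with vitamin C and 1 lower. These were the phosphatase PTPN6, itself one of the blood markers, at 1.65 ± 0.20 (edgeR adjusted p = 5.01e-04) and STAT3 at -0.25 ± 0.06 (edgeR adjusted p = 0.0398), followed by SOCS1 at -0.73 ± 0.25, which was not called. Among 22 other nucleic acid sensing genes 14 were tested and 3 were called, all higher. They were STING1, the adaptor of DNA sensing, at 1.86 ± 0.14 (edgeR adjusted p = 2.89e-05), the RNA-binding antiviral protein ZC3HAV1 at 0.48 ± 0.07 (edgeR adjusted p = 0.00271) and the DNA sensor CGAS at 1.10 ± 0.18 (edgeR adjusted p = 0.00354).

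STING1 held 15.04, 31.7, 30.7, 36.5 and 46.3 CPM with vitamin C at 0, 24, 36, 48 and 60 h, against 5.82, 9.28, 9.32, 8.18 and 9.57 CPM without it, so that all 5 Vc+ libraries lay above all 5 Vc- libraries. Of 15 interferon gamma targets 8 were tested, with GBP4 called higher (0.88 ± 0.11), ICAM1 called lower (-0.57 ± 0.12) and SOCS1 not called. Of 11 antigen processing genes 5 were tested, with ERAP1 called lower (-0.32 ± 0.08) and PSME1 (-0.27 ± 0.11) and B2M (0.33 ± 0.25) not called. Of 15 NF-kB targets 12 were tested, with SELE called higher (1.46 ± 0.29) and ICAM1 and CCL2 (-1.53 ± 0.37) called lower. No interferon receptor chain outside the members was called, IL10RB standing at -0.68 ± 0.22, IFNGR2 at -0.28 ± 0.18 and IFNGR1 at 0.01 ± 0.08.

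Levels changed over the hours in 20 members. The edgeR F test across the 5 times called these 20 of the 29 (69.0%), where it called 40.1% of all genes tested. TRIM22 held 1.38, 0.805, 3.27, 7.64 and 25.5 CPM with vitamin C, against 6.07, 0.784, 3.64, 13.6 and 37.2 CPM without it, at 0, 24, 36, 48 and 60 h. In both groups it was near 1 CPM at 24 h and highest at 60 h (edgeR adjusted p for time = 1.36e-05). BST2 held 102, 23.2, 21.1, 42.9 and 49.8 CPM with vitamin C, against 63.7, 7.97, 15.7, 34.1 and 73.2 CPM without it. It was lowest at 24 or 36 h in each group, and it was higher at 60 h than at 0 h without vitamin C and lower with it (edgeR adjusted p for time = 2.96e-04).

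Early and late libraries also differed in other groups of members. IFITM1 was the member with the smallest p for time (edgeR adjusted p = 1.10e-05), with its lowest level at 24 h in both groups. The 9 tested members not called for time were IRF9, IFIH1, EIF2AK2, IFIT5, OAS3, ISG20, ISG15, HERC6 and TRIM21. PARP14 held 69.8, 89.9, 107, 105 and 148 CPM with vitamin C, against 29.5, 86.9, 107, 113 and 139 CPM without it. It was lowest at 0 h in both and highest at 60 h (edgeR adjusted p for time = 0.00366). IFIT5 held 5.97, 9.65, 7.03, 5.65 and 7.46 CPM with vitamin C, against 4.39, 6.53, 6.94, 8.02 and 7.63 CPM without it, and USP18 held 0.574, 1.45, 2.302, 0.611 and 3.07 CPM with vitamin C, against 0.388, 1.57, 0.682, 0.617 and 0.129 CPM without it. Neither was lowest or highest at the same time in both groups, and IFIT5 was not called for it (edgeR adjusted p = 0.494).

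**Figure D3:**
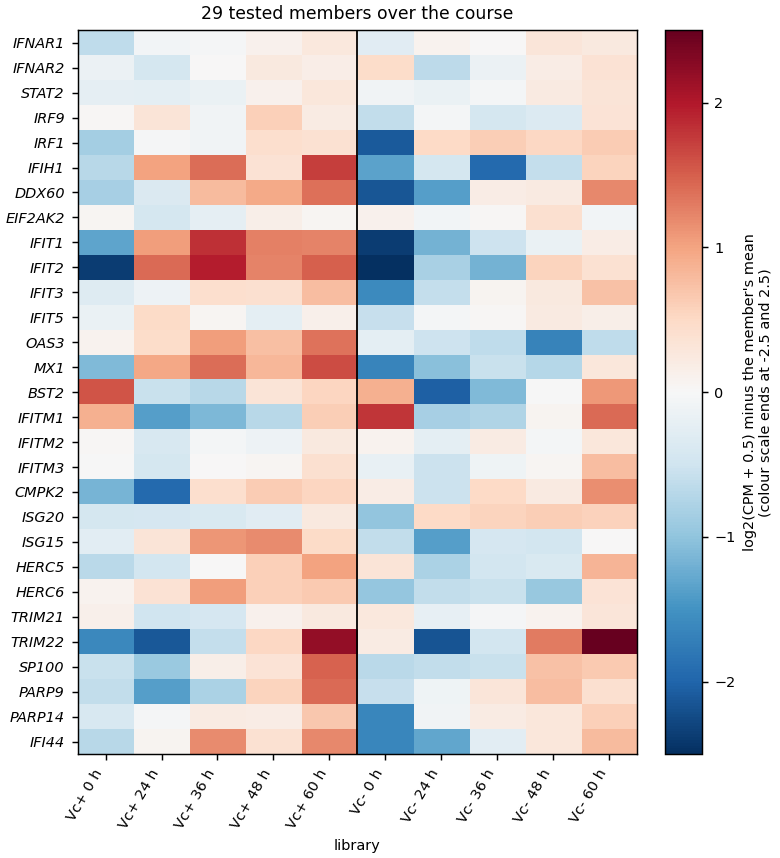
Level of the 29 tested members (rows) in the 10 course libraries (columns, Vc+ left of Vc-), as log2(CPM + 0.5) minus the member's own mean over the 10, red above and blue below it. IFIT1, IFIT2, OAS3 and MX1 are redder in the Vc+ columns, and TRIM22 is reddest at 60 h in both groups.

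Straight lines over the hours gave 4 called members, all rising without vitamin C. These were DDX60, IFIT3, PARP14 and IFI44, which rose by 4.63, 2.35, 2.11 and 5.74 on the log2 scale per 60 h without vitamin C (edgeR adjusted p = 0.0104, 0.00231, 0.0139 and 0.0360). They are 13.8% of the 29, where 2.21% of all genes were called as rising and 1.95% as falling without vitamin C. With vitamin C the same 4 had slopes of 2.69, 1.12, 0.99 and 2.40, and no member was called, where 0.819% of all genes were called as rising and 0.636% as falling. Slopes were above 0 for 27 of the 29 members in each group, where 49.2% of all genes were with vitamin C and 48.9% without it. The median member slope was 1.12 with vitamin C and 1.10 without it, against -0.0090 and -0.0155 over all genes. The difference in slope itself was called for 0 members and for 0% of all genes by edgeR, with 3 members (IFIT3, OAS3 and PARP14) and 415 genes at an unadjusted p under 0.05, and DESeq2 also called 0 members.

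In the sorted endothelial cells, which were never re-plated, no member was called for vitamin C. Of the 45 members 30 passed the filter there (1 TPM in at least 2 libraries), and limma called 0 of them, as it called 0% of the 14421 genes tested, with 2 members and 313 genes at an unadjusted p under 0.05. The 2 members were EIF2AK2 with 10.3 and 9.14 TPM with vitamin C, against 23.8 and 16.8 TPM without it, and CMPK2 with 0.12 and 0.42 TPM with vitamin C, against 4.14 and 1.86 TPM without it. Their log2 differences on the log2(TPM + 1) scale were -0.97 ± 0.36 and -1.60 ± 0.50 (SE), both with a limma adjusted p of 1.00. The 2 Vc+ libraries lay above both Vc- libraries for 5 of the 30 members (16.7%; LGALS3BP, IFI6, BST2, IFITM3 and IRF7), where 9.09% of all genes did. The Vc+ libraries lay below both Vc- libraries for another 5 (16.7%; EIF2AK2, CMPK2, DDX60, HERC5 and IFNAR2), where 19.3% of all genes did. With groups taken from the descriptions, limma called 156 of all genes and 0 members. Of the 29 members tested over the course, 3 (10.3%; IFIH1, MX1 and DDX60) were higher with vitamin C at all 5 times and lower in both sorted Vc+ libraries than in both Vc- libraries, where 1.77% of 12588 genes had such opposite signs in either direction. With the groups of the descriptions the values of these 3 overlapped, as they must when 1 library of each group is exchanged.

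TPM values are per length, so members can be ordered by level in these cells. The highest were the IFITM proteins. IFITM3 had 1313 and 2117 TPM with vitamin C, against 1103 and 1181 TPM without it, IFITM2 had 644 and 1349.8 TPM in Vc+ cells against 719 and 874 TPM in Vc- cells, and IFITM1 had 252 and 487 TPM in Vc+ cells against 325 and 393 TPM in Vc- cells. Next came BST2, with 664 and 276 TPM in Vc+ cells against 258 and 219 TPM in Vc- cells, and ISG15, with 89.6 and 231 TPM in Vc+ cells against 81.4 and 105 TPM in Vc- cells. The values of IFITM1 and BST2 overlapped, as did those of IFITM2 and IFITM3, whereas every IFITM2 value was above every IFITM1 value.

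The receptors and transcription factors had 5.42 to 67.7 TPM. IFNAR1 had 55.8 and 27.5 TPM with vitamin C, against 67.2 and 33.5 TPM without it, and IFNAR2 had 45.7 and 44.8 TPM in Vc+ cells against 63.2 and 62.9 TPM in Vc- cells. STAT2 had 61.05 and 29.6 TPM in Vc+ cells against 67.7 and 33.4 TPM in Vc- cells, IRF9 had 49.01 and 23.7 TPM in Vc+ cells against 29.1 and 24.3 TPM in Vc- cells, IRF7 had 51.4 and 29.7 TPM in Vc+ cells against 25.7 and 16.7 TPM in Vc- cells and IRF1 had 5.71 and 8.74 TPM in Vc+ cells against 5.42 and 8.5 TPM in Vc- cells. For STAT2 and IFNAR1 the first library of each group was higher than the second library of either group.

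The members called over the course were low in the sorted cells, apart from ISG15 and IFITM1. IFIT1 had 2.89 and 9.53 TPM with vitamin C, against 10.9 and 4.76 TPM without it, HERC6 had 0.76 and 0.83 TPM in Vc+ cells against 2.08 and 0.5 TPM in Vc- cells, and OAS3 had 0.97 and 1.18 TPM in Vc+ cells against 1.19 and 1.13 TPM in Vc- cells. IFIT2 had 0.31 and 0.63 TPM in Vc+ cells against 0.56 and 0.11 TPM in Vc- cells, MX1 had 0.37 and 0.3 TPM in Vc+ cells against 0.87 and 1.23 TPM in Vc- cells and IFIH1 had 0.08 and 0.06 TPM in Vc+ cells against 0.82 and 0.14 TPM in Vc- cells. IFIT1, IFIT2, HERC6 and OAS3 overlapped between the groups, while MX1 and IFIH1 were lower with vitamin C in both libraries, at levels near or under 1 TPM. Of the members with a large difference between suspended and adhered cells, PARP14 had 28.0 and 10.03 TPM in Vc+ cells against 34.05 and 22.1 TPM in Vc- cells, IFIT3 had 19.2 and 20.2 TPM in Vc+ cells against 41.8 and 11.8 TPM in Vc- cells, IFIT5 had 5.78 and 4.41 TPM in Vc+ cells against 4.82 and 1.94 TPM in Vc- cells, TRIM22 had 28.5 and 9.5 TPM in Vc+ cells against 39.9 and 17.5 TPM in Vc- cells and USP18 had 0.13 and 0.19 TPM in Vc+ cells against 0.16 and 0.58 TPM in Vc- cells.

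The 15 members outside the filter in the sorted cells were IFIH1, IFIT2, OAS1, OASL, MX1, MX2, RSAD2, HERC6, USP18, SAMD9, SAMD9L, IFI44, IFI44L, XAF1 and EPSTI1. SAMD9L was at 0 in all 17 libraries. Some members differed widely between the 2 kinds of table, though CPM are not scaled by length. IRF9 had 23.7 to 49.01 TPM and 1.94 to 9.04 CPM in the count libraries. IFITM1 had 252 to 487 TPM and 3.38 to 33.9 CPM over the course. A pair of members had clear TPM but very few counts. IRF7 was listed at 16.7 to 51.4 TPM yet had 71 counts in all over the 13 count libraries, and IFI27 was listed at 5.19 to 15.3 TPM yet had 1 count, so low counts of these 2 do not show that the cells lacked them.

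**Figure D4:**
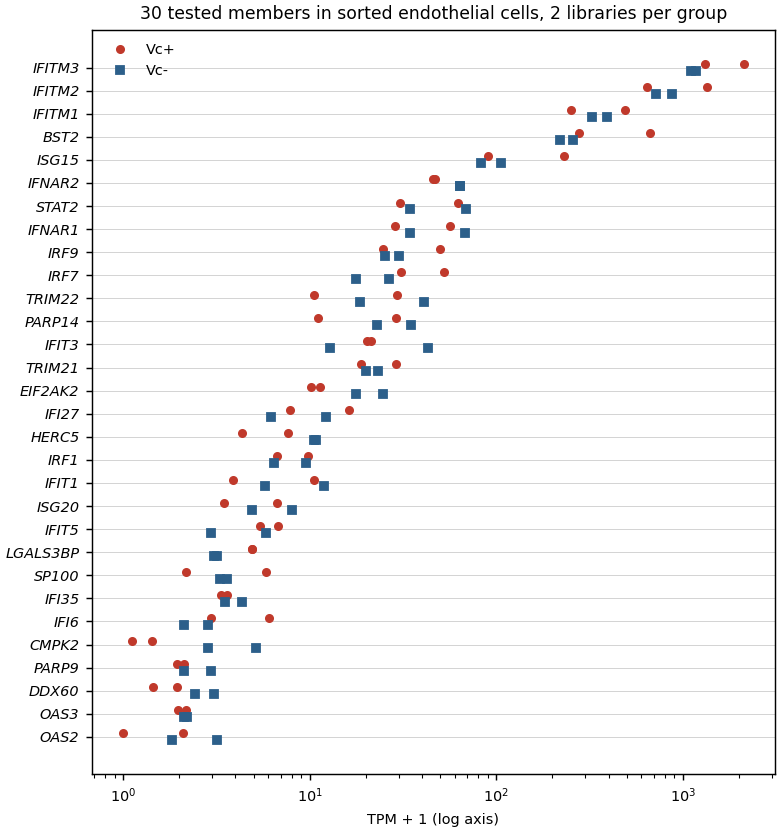
TPM + 1 on a log axis (horizontal) of the 30 tested members in sorted endothelial cells, each library as a point, Vc+ as red circles and Vc- as blue squares, ordered by mean level. IFITM3 is at the top with 1103 to 2117 TPM, and the 2 groups overlap for most members.

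Among cells made with vitamin C, the suspended cells of 60 h held less of many members than the adhered cells of the same time. These are single libraries, so no test was made, and a member is counted when its CPM differed at least 2-fold and its higher library held 5 CPM or more. Of 25 members that reached this level, 11 (44.0%) were past 2-fold lower in suspended cells, where 14.6% of all genes were, and 4 (16.0%) past 2-fold higher, where 12.3% of all genes were. The median log2 ratio of the 25 was -0.92, against 0.14 over all genes. With 5 CPM added in place of 0.5 the 15 members past 2-fold became 8, and with a minimum of 20 CPM they became 6 of 14. Blood markers summed to 2377 CPM in suspended cells and 189 CPM in adhered cells, with 11 of 12 past 2-fold higher, and endothelial markers to 2351 CPM in suspended cells and 11081 CPM in adhered cells, with 12 of 12 past 2-fold lower. Suspended cells of 60 h thus still held endothelial RNA, such as CDH5 (VE-cadherin) at 194 CPM, against 1347 CPM in adhered cells.

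BST2 held 9.34 CPM (exact Poisson 95% interval 7.21 to 11.9 CPM) in suspended cells, against 74.9 CPM (69.1 to 81.1 CPM) in adhered cells, a log2 ratio of -2.94 (95% interval -3.40 to -2.63). PARP14 held 19.6 CPM in suspended cells, against 136.6 CPM in adhered cells, a log2 ratio of -2.77 (95% interval -3.07 to -2.55). IFIT3 held 16.96 CPM in suspended cells, against 85.8 CPM in adhered cells, a log2 ratio of -2.30 (95% interval -2.63 to -2.05). These were the 3 largest differences, for which they are shown, and the intervals cover counting error only. IFIT5 held 2.16 CPM in suspended cells, against 11.0 CPM in adhered cells, a log2 ratio of -2.11 (95% interval -3.24 to -1.55). TRIM22 held 5.89 CPM in suspended cells, against 24.4 CPM in adhered cells, a log2 ratio of -1.96 (95% interval -2.57 to -1.56). In the opposite direction went USP18, the protease that removes ISG15, with 7.04 CPM in suspended cells, against 1.48 CPM in adhered cells, a log2 ratio of 1.93 (95% interval 1.32 to 3.30).

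The other members past 2-fold lower in suspended cells were IFIT1, OAS3, PARP9, DDX60, IRF1 and IFI6, at log2 ratios of -1.56 to -1.14. Besides USP18, those past 2-fold higher were IFITM1 at 1.44, SP100 at 1.31 and CMPK2 at 1.25. IFNAR1 held 49.2 CPM in suspended cells, against 78.4 CPM in adhered cells, IFNAR2 held 23.4 CPM in suspended cells against 44.8 CPM in adhered cells and STAT2 62.4 CPM in suspended cells against 83.3 CPM in adhered cells, all short of 2-fold. IRF9 held 2.59 CPM in suspended cells against 3.20 CPM in adhered cells, IRF7 0.57 CPM in suspended cells against 0.49 CPM in adhered cells and IRF1 4.17 CPM in suspended cells against 10.2 CPM in adhered cells. Of the 7 members called higher with vitamin C over the course, 6 had the lower value in suspended cells, and ISG15 differed little. Of these 6 only IFIT1 and OAS3 were past 2-fold by the rule above. IFIT2 was short of 2-fold, and IFIH1, MX1 and HERC6 were under 5 CPM in both libraries. The share of all genes with any lower value was not counted. ISG15 was at 60.2 CPM in suspended cells against 57.4 CPM in adhered cells, IFIT2 at 5.75 CPM in suspended cells against 10.6 CPM in adhered cells, IFIH1 at 1.01 CPM in suspended cells against 4.68 CPM in adhered cells, MX1 at 1.01 CPM in suspended cells against 4.68 CPM in adhered cells and HERC6 at 2.44 CPM in suspended cells against 4.31 CPM in adhered cells.

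Suspended cells at 96 h held far more of many members than suspended cells at 60 h. Of 31 members that reached 5 CPM, 18 (58.1%) were past 2-fold higher at 96 h, where 5.54% of all genes were, and 0 were past 2-fold lower, where 10.5% of all genes were. The median log2 ratio of the 31 was 1.26, against -0.19 over all genes. The 18 covered every role apart from the receptors. Cells made without vitamin C were not analysed at 96 h here, so this is a difference within cells made with vitamin C. With a minimum of 20 CPM it was 11 of 20 members. The members named in this comparison were chosen after their values were seen.

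EPSTI1, an interferon-induced gene, held 30.7 CPM (339 counts) at 96 h, against 0.29 CPM (2 counts) at 60 h, a log2 ratio of 5.31 with a 95% interval of 4.87 to 9.79. MX1 held 36.5 CPM at 96 h, against 1.01 CPM at 60 h, a log2 ratio of 4.62 (95% interval 4.13 to 6.51). PARP9 held 60.0 CPM at 96 h, against 2.73 CPM at 60 h, a log2 ratio of 4.23 (95% interval 3.80 to 5.20). For MX1 and PARP9 the 96 h library was above all 12 other count libraries, in which MX1 never passed 4.68 CPM and PARP9 never passed 11.9 CPM. IFI6 held 54.7 CPM at 96 h, against 3.02 CPM at 60 h, a log2 ratio of 3.97 (95% interval 3.55 to 4.88). OAS1 held 11.12 CPM at 96 h, against 0.43 CPM (3 counts) at 60 h, a log2 ratio of 3.64 (95% interval 3.11 to 6.99), and OAS3 held 43.4 CPM at 96 h against 5.17 CPM at 60 h, a log2 ratio of 2.95 (95% interval 2.58 to 3.60).

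IFIH1 held 14.4 CPM at 96 h, against 1.01 CPM at 60 h, a log2 ratio of 3.30 (95% interval 2.76 to 5.17), and EIF2AK2 held 115.7 CPM at 96 h against 54.8 CPM at 60 h. All 4 IFIT genes were past 2-fold higher at 96 h, IFIT1 with 101.8 CPM at 96 h against 16.0 CPM at 60 h, IFIT5 with 13.6 CPM at 96 h against 2.16 CPM at 60 h, IFIT2 with 21.8 CPM at 96 h against 5.75 CPM at 60 h and IFIT3 with 42.9 CPM at 96 h against 16.96 CPM at 60 h. HERC6 held 12.5 CPM at 96 h against 2.44 CPM at 60 h, SP100 78.1 CPM at 96 h against 19.98 CPM at 60 h, IFITM1 101.01 CPM at 96 h against 37.5 CPM at 60 h, DDX60 9.13 CPM at 96 h against 3.59 CPM at 60 h, IRF9 9.04 CPM at 96 h against 2.59 CPM at 60 h and IRF1 10.7 CPM at 96 h against 4.17 CPM at 60 h. ISG15 held 105.3 CPM at 96 h, against 60.2 CPM at 60 h, and STAT2 80.8 CPM at 96 h against 62.4 CPM at 60 h, both short of 2-fold.

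Lower at 96 h without passing 2-fold were IFNAR1, with 27.9 CPM at 96 h against 49.2 CPM at 60 h, and BST2, with 5.34 CPM at 96 h against 9.34 CPM at 60 h. IFNAR2 held 22.9 CPM at 96 h against 23.4 CPM at 60 h, TRIM22 5.97 CPM at 96 h against 5.89 CPM at 60 h, PARP14 35.3 CPM at 96 h against 19.6 CPM at 60 h, USP18 10.1 CPM at 96 h against 7.04 CPM at 60 h and IRF7 1.09 CPM at 96 h against 0.57 CPM at 60 h. Outside the 45, 15 nucleic acid sensing genes reached 5 CPM, at a median log2 ratio of -0.12, and 0 of them were past 2-fold lower. Of 6 interferon gamma targets that did, 2 were past 2-fold higher (NLRC5 and CXCL11) and 1 lower (GBP4, with 6.51 CPM at 96 h against 16.5 CPM at 60 h). RIGI, the sister sensor of IFIH1, held 40.4 CPM at 96 h against 8.77 CPM at 60 h, and NLRC5, an activator of antigen presentation genes, 35.9 CPM at 96 h against 1.87 CPM at 60 h. No interferon gene had more than 1 count at either time. The 14 members that reached 5 CPM in none of these 3 libraries were IRF7, OAS2, OASL, MX2, RSAD2, ISG20, SAMD9, SAMD9L, IFI27, IFI35, IFI44, IFI44L, XAF1 and LGALS3BP.

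Blood markers summed to 4122 CPM at 96 h and 2377 CPM at 60 h, with 3 of 12 past 2-fold higher. Much of this sum was ITGA2B, with 1896 CPM at 96 h against 774 CPM at 60 h. SPI1, VAV1, IKZF1 and MYB were lower at 96 h, short of 2-fold, and the other blood markers were higher. Endothelial markers summed to 1129 CPM at 96 h and 2351 CPM at 60 h, with 7 of 12 past 2-fold lower, EMCN past 2-fold higher and ROBO4 at 0 at 96 h, and mesenchymal markers to 62.0 CPM at 96 h and 250.2 CPM at 60 h. Myeloid markers summed to 320.3 CPM at 96 h and 154 CPM at 60 h, with 2 of 8 past 2-fold higher, MRC1 past 2-fold lower and CD14 and AIF1 at 0 at both times. The part of these markers in the members' difference was not tested. Time and library cannot be told apart, as each time has 1 suspended library, and all intervals cover counting error only.

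**Figure D5:**
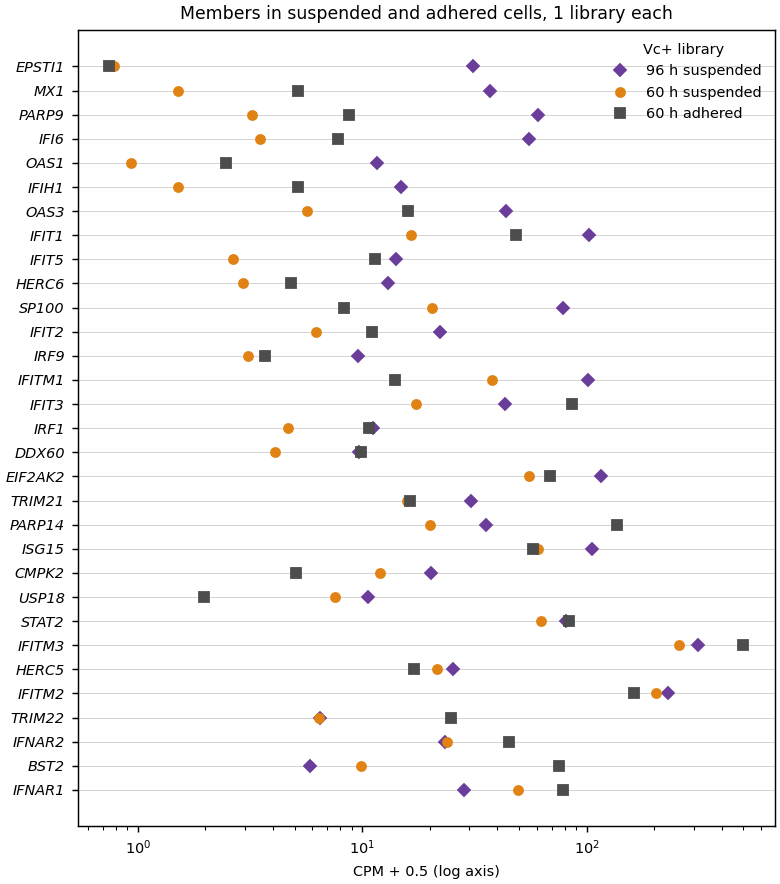
CPM + 0.5 on a log axis (horizontal) of the members that reached 5 CPM in either comparison, in 1 library each of suspended cells at 96 h (purple diamonds), suspended cells at 60 h (orange circles) and adhered cells at 60 h (grey squares), ordered by the ratio of 96 to 60 h. EPSTI1, MX1 and PARP9 at the top have the widest gap between 96 h and 60 h, and IFNAR1 at the bottom is lower at 96 h.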

How the data were processed

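Per the labels' protocols, total RNA was taken with Trizol for TruSeq RNA libraries. According to the submitters' processing notes, the tools were DESeq 1.18.1, HTSeq 0.6.0, SAMtools 1.3.1 and HISAT2 2.0.4 and the build was GRCh38, with no role given. The authors deposited raw read counts per gene for 13 libraries, and for the 4 sorted libraries values that were read as TPM because they sum to 995020 to 996531 in a library; how these TPM values were made and the depth behind them are not given in the sources used here, nor is the strand setting or the annotation used for counting.

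Symbols were matched to identifiers through the gene table and GENCODE 29. Groups follow the sample titles, and for 2 of the 4 sorted libraries the descriptions give the other condition. CPM are counts scaled by the library's total. Counts were tested with edgeR 4.0.16 (TMM, filterByExpr, quasi-likelihood F test, the times as factor or as a line per condition scaled to 60 h), and TPM with limma 3.58.1 (trend) on log2(TPM + 1), which understates changes of low genes, with at least 1 TPM in 2 libraries. P-values are two-sided and adjusted after Benjamini and Hochberg over all genes tested. The SE of an edgeR value comes from its F statistic. Pairs of single libraries were compared by the log2 ratio of CPM + 0.5, with exact Poisson and conditional 95% intervals (scipy), which cover counting error only. The interval of a ratio is for the CPM without 0.5 added. At low counts it thus belongs to a ratio further from 0 than the printed one. The edgeR and limma steps were checked on simulated data. The alternatives were DESeq2 1.42.0 and its size factors, no filter, each library or time left out, no time term, time ranks, other pseudocounts and minimums, quantile normalization, the descriptions' groups and a replicate block.

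The members and gene lists were chosen with earlier results of these data known. Values in every library are given for members called for vitamin C, the 2 receptors, the 4 transcription factors and the 6 members with the largest difference between suspended and adhered cells, and up to 3 genes with the smallest p are named from each other list. Reporter-negative cells were not analysed here. Some results on pathway genes outside the 45 are not reported here.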

Additional observations from a re-analysis of the deposited data

Results flagged for a closer look

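For 3 of 29 members (10.3%), where the share over all genes was 1.77%, the difference with vitamin C had opposite signs in the 2 experiments, with every library of the sorted cells on one side and every time of the course on the other. IFIH1 was higher with vitamin C at all 5 times of the course (log2 difference 2.05), and in sorted cells it had 0.0800 and 0.0600 TPM with vitamin C, against 0.820 and 0.140 TPM without it. MX1 was higher at all 5 times (2.32; at 0 h by 2 counts with vitamin C against 0 without it), and in sorted cells it had 0.370 and 0.300 TPM with vitamin C, against 0.870 and 1.23 TPM without it. DDX60 was higher at all 5 times (0.80, not called), and in sorted cells it had 0.440 and 0.940 TPM with vitamin C, against 1.42 and 2.05 TPM without it. The groups of the descriptions exchange 2 of the 4 sorted libraries, 1 from each group. The values of all 3 then overlapped, as they must after such an exchange, so this overlap is no separate check. The difference between the experiments was not tested, and the sorted levels are near or under 1 TPM for IFIH1 and MX1, with unknown depth.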

How the results depend on the processing

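The 8 members called for vitamin C remained called with DESeq2 size factors, and 7 of them with the DESeq2 test, which gave MX1 no adjusted p. With no filter on low counts 12 members were called, the same 8 with IFIT3, BST2, TRIM22 and IFI6. Leaving out 1 library gave 4 to 9 calls. Leaving out both libraries of a time, which was added after seeing the data for 24 to 60 h, gave 9 calls without 0 h, 5 without 24 h, 4 without 36 h, 5 without 48 h and 6 without 60 h. MX1 did not pass the filter without the 60 h pair. With no term for time 0 members and 28 genes of all were called. The sign of IFNAR2, which was not called, turned to 0.0504 on the log2 scale without the 0 h pair, and ran from -0.16 to 0.0509 when 1 library was left out. Members called for time numbered 15 to 22 over the alternatives, and 0 members were called for the difference in slope under each.

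In the sorted cells 0 members were called under each alternative. With the descriptions' groups 156 genes of all were called, and 8 members and 3088 genes were at an unadjusted p under 0.05. The replicate numbers were tried as a replicate block, which called 0 members and put 6 members and 1237 genes at an unadjusted p under 0.05, where the fit without it put 2 and 313. Differences between libraries 1 and 2 correlated over 14421 genes between the groups (r = 0.565), but with 2 pairs this shows only a shared number.

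For suspended against adhered cells the 15 members past 2-fold became 8 with 5 CPM added, 6 with a minimum of 20 CPM, 20 with a minimum of 1 CPM and 17 with TMM factors. For 96 against 60 h the 18 became 11 with a minimum of 20 CPM, 15 with 5 CPM added, 21 with a minimum of 1 CPM and 19 with TMM factors. TMM factors moved the median log2 ratio of all genes to 0.01 where it was 0.14, and to -0.05 where it was -0.19.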
